A study of Mus musculus with 2 samples.

Results

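The Mir17-92 and Mir106b-25 clusters are 2 paralogous groups of miRNA genes, and their 9 hairpin genes were examined here among the 2202 miRNA genes counted in small RNA libraries of mouse muscle. The genes were chosen by name. Mir17, Mir18, Mir19a, Mir20a, Mir19b-1 and Mir92-1 lie on chromosome 14, and Mir106b, Mir93 and Mir25 lie in an intron of Mcm7 on chromosome 5. The tissue was the gastrocnemius, the large calf muscle, of male B6CASTF1/J mice at 10 days of age, which are hybrids of the C57BL/6J and CAST/EiJ strains. There were 2 libraries in 1 group, with no treatment named, so no contrast between conditions exists. The labels give the libraries separate biological replicate numbers and differently numbered animals but the same donor entry, and where the samples were not independent the spread between them may be partly technical.

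Mir17-92 is transcribed as 1 polycistronic precursor that is cut into separate hairpins, and each hairpin yields a mature miRNA of about the length of a sequencing read. The transcription factors MYC and E2F are known to activate it, and its miRNAs are known to repress inhibitors of the cell cycle and promoters of cell death, which earned it the name oncomiR-1. Mir106b-25 is cut from the transcript of Mcm7, which encodes a subunit of the replicative helicase, so its miRNAs are made along with a gene of DNA replication. In muscle these miRNAs have been studied for their part in myoblast proliferation before differentiation.

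A miRNA finds its targets mainly through its seed, bases 2 to 8 from the 5′ end, and the 9 genes fall into 4 seed families. The seed-bearing mature arms are shown so that the families can be told apart. They come from RefSeq on build GRCm38.p6, which matched all 9 genes by symbol, and capitals mark the seed. The miR-17 family holds 4 genes, from both clusters.
miR-17-5p: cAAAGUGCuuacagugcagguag
miR-20a-5p: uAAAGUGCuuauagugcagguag
miR-106b-5p: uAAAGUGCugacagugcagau
miR-93-5p: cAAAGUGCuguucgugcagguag
The miR-18 family has 1 gene here, with a seed that differs from that of miR-17-5p at 1 base, A4G counted from the 5′ end of the arm.
miR-18a-5p: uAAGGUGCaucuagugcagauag
The miR-19 family has 2 genes, both on chromosome 14.
miR-19a-3p: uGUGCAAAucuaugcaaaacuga
miR-19b-3p: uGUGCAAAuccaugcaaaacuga
The miR-92 family has 1 gene from each cluster.
miR-92a-3p: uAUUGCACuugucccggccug
miR-25-3p: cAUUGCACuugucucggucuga

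Outside the seed the family members differed at few positions, counted from 1 at the 5′ end without gaps. Against miR-17-5p, miR-20a-5p carried C1U and C12U, and miR-106b-5p carried C1U, U10G and G20A over the 21 bases compared. In miR-93-5p the differences were U10G, A11U, C12U and A13C, all in the middle of the arm. Between the miR-19 arms there was 1 difference, C11U from miR-19b-3p to miR-19a-3p. From miR-92a-3p to miR-25-3p there were U1C, C14U and C18U.

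The 6 hairpins on chromosome 14 lie within 836 bases (115043671 to 115044506, mm10, plus strand), all in exon 2 of the 2-exon long non-coding RNA Mir17hg (115042879 to 115046727). Their order along the transcript is Mir17, Mir18, Mir19a, Mir20a, Mir19b-1 and Mir92-1, with 35 to 96 bases between neighbours. The 3 hairpins on chromosome 5 lie within 498 bases (138165321 to 138165818, minus strand), in intron 13 of a 15-exon coding transcript of Mcm7. Their order is Mir106b, Mir93 and Mir25. In a retained-intron transcript of the gene, the hairpins Mir93 and Mir25 lie in exon 1.

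Replicate 1 had 3999172 reads assigned to miRNA genes and replicate 2 had 5062714. Levels are counts per 1000000 assigned counts (CPM), with the SD over the 2 libraries. Each read spans a mature miRNA and the counts were not divided by hairpin length, and dividing them by it left all 36 pairs of the 9 genes in the same order. The muscle marker Mir206 was abundant (94022 ± 9301 CPM, n = 2), while the other 7 listed muscle markers had between 1.67 and 247 CPM. Reads that match several genomic places are in no gene count, so a marker with copies may be counted too low. Which markers this touches was not examined. Markers of other cells were present too, the endothelial Mir126a at 61854 ± 8585 CPM and the smooth muscle Mir143 at 26527 ± 3672 CPM. In whole muscle, fewer cells of a type and less RNA per cell cannot be told apart.

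Of the 9 genes, 7 were present at moderate levels in both libraries and both miR-19 genes were near the limit of detection. The 7 had at least 10 counts in each library, and all 7 lay above 135 CPM, the median of the 313 genes that passed that minimum. Together the 9 genes took 0.570% ± 0.0046 of the assigned counts. The Mir17-92 cluster held 67.8% ± 0.11 of these counts. Reads that match several genomic places are in no gene count. This share, and every other share, sum, ratio or order that includes Mir19b-1 or Mir92-1, therefore rests on counts that lack an unknown number of reads. The assigned totals lack such reads too. Every CPM value, and every rank or median over all genes, thus describes the counted reads alone. The levels of Mir17-92 were 3888 CPM (replicate 1) and 3835 CPM (replicate 2), and Mir106b-25 had 1843 and 1831 CPM. The chromosome 14 cluster exceeded the other by 2.11-fold in replicate 1 and 2.09-fold in replicate 2.

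**Figure D1:**
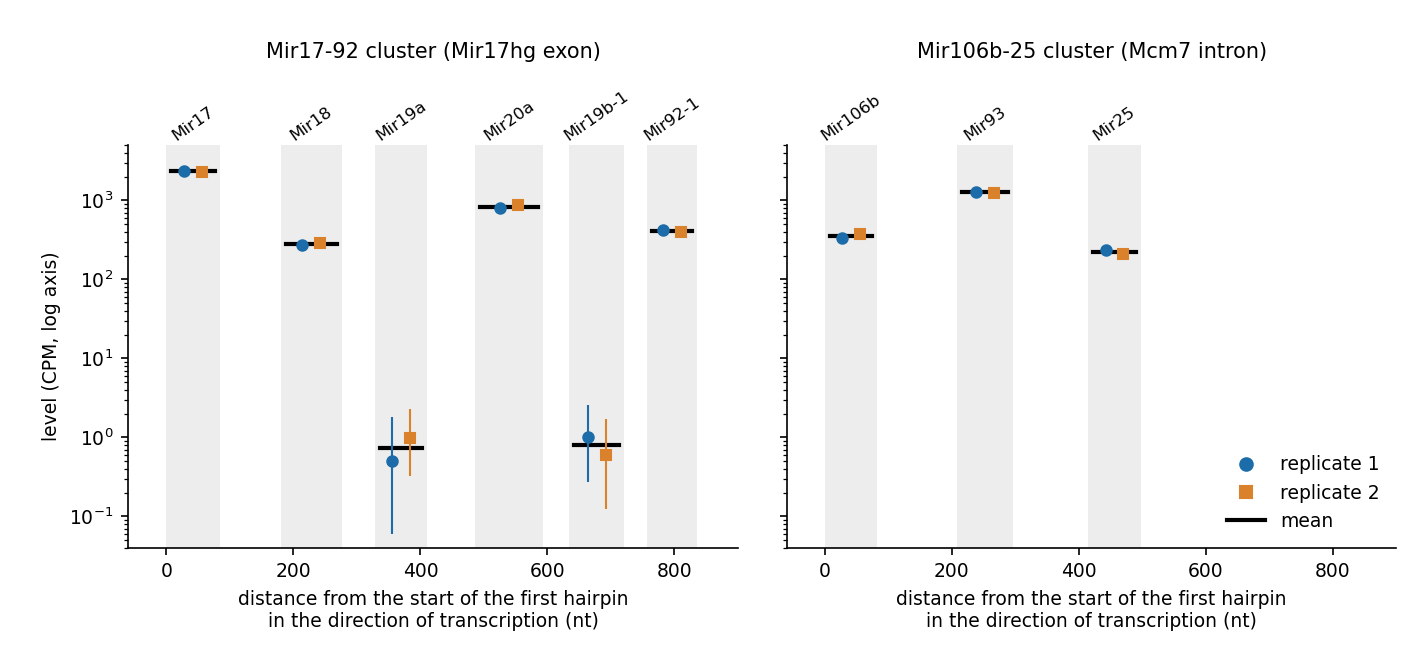
Level of each gene (CPM, log axis) against its distance from the first hairpin of its cluster in bases, for the Mir17-92 cluster (left) and the Mir106b-25 cluster (right). Grey bands are hairpins, points are the 2 libraries with exact 95% counting intervals, and black lines are means. Mir19a and Mir19b-1 lie at or below 1.00 CPM between neighbours of 271 CPM or more.

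The highest level among the 9 belonged to Mir17, the founding gene of the cluster, whose miR-17-5p is known to repress the cell cycle inhibitor Cdkn1a. It had 9562 counts (2391 CPM) in replicate 1 and 11528 counts (2277 CPM) in replicate 2, a mean of 2334 ± 81 CPM and rank 54 of all genes. The exact 95% intervals for counting error (2343 to 2439 and 2236 to 2319 CPM) did not overlap. With TMM scaling, a correction of the library totals for differences in composition, the log2 ratio of replicate 2 to replicate 1 was 0.00078 (interval -0.038 to 0.040), so the spread of Mir17 depended on the scaling. Mir17 supplied 60.4% ± 1.5 of the counts of its cluster. Each hairpin has 1 count, whichever arm a read came from. The Mir17 hairpin is shown with both arms in capitals, since reads of either one add to the same value.
Mir17 hairpin: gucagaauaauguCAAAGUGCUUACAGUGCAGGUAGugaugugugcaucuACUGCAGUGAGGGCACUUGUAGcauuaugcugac

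Mir20a, the close relative of Mir17 downstream in the same exon, was counted at 807 and 865 CPM in replicates 1 and 2. Its mean of 836 ± 41 CPM was 21.7% ± 1.3 of the cluster. Mir17 exceeded Mir20a 2.96-fold in replicate 1 and 2.63-fold in replicate 2, so the pair kept its order but not its exact proportion. The exact counting intervals of these ratios (2.85 to 3.08 and 2.54 to 2.73) did not overlap.

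The other 2 genes with this seed come from the Mcm7 intron. Mir93 was counted at 1274 and 1248 CPM (mean 1261 ± 19 CPM). It supplied 68.6% ± 0.69 of the Mir106b-25 counts, although it is the middle hairpin and not the first. Mir106b had 333 and 373 CPM (mean 353 ± 29 CPM), and the ratio of Mir93 to Mir106b was 3.83 in replicate 1 and 3.34 in replicate 2. These counting intervals did not overlap either (3.60 to 4.07 and 3.17 to 3.52). The 4 genes of the miR-17 seed held 84.0% ± 0.17 of all reads counted for the 9 genes, a share whose denominator lacks the uncounted reads of Mir19b-1 and Mir92-1.

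Mir18, the only one of the 9 genes with its seed, stood at a lower level than Mir17 although it is the next hairpin. It had 1084 counts (271 CPM) in replicate 1 and 1454 counts (287 CPM) in replicate 2. Mir17 exceeded it 8.37 ± 0.63-fold.

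The miR-92 seed was carried by the last hairpin of each cluster. Mir92-1, whose product miR-92a is known as an inhibitor of blood vessel growth, had 418 and 404 CPM. Mir25 had 236 and 210 CPM. In both libraries Mir92-1 was higher, by 1.77-fold and 1.92-fold. Mir17 exceeded Mir92-1 by 5.73-fold and 5.64-fold, and here the counting intervals overlapped.

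The miR-19 genes stood apart from all others of the transcript. Mir19a had 2 counts (0.500 CPM) in replicate 1 and 5 counts (0.988 CPM) in replicate 2. Mir19b-1 had 4 counts (1.00 CPM) and 3 counts (0.593 CPM). Both lie inside the same exon as Mir17, with Mir19a 53 bases after Mir18 and 75 bases before Mir20a. Mir17 exceeded Mir19a by 4781-fold in replicate 1 (exact counting interval 1323 to 39484) and by 2306-fold in replicate 2 (988 to 7102). Against Mir19b-1 the ratios were 2391-fold (933 to 8775) and 3843-fold (1315 to 18636). A count of 0 would allow up to 0.750 CPM in replicate 1 and 0.593 CPM in replicate 2, so these values are close to that limit and the order of the miR-19 genes was not resolved.

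Ordered by mean level, the genes ran Mir17, Mir93, Mir20a, Mir92-1, Mir106b, Mir18, Mir25, Mir19b-1 and Mir19a. The counts of Mir92-1 and Mir19b-1 lack an unknown number of reads, so these genes may belong higher in it. For 7 of the 8 neighbouring pairs in this order the libraries of the higher gene both lay above those of the lower gene. The exception was the miR-19 pair, which changed places between libraries. By the fold of the means the narrowest of the 7 gaps was between Mir92-1 and Mir106b (1.16-fold), which were 1.25-fold apart in replicate 1 and 1.08-fold in replicate 2. Mir18 and Mir25 were closer than this in replicate 1 (1.15-fold) and further apart in replicate 2 (1.37-fold). With 2 values a gene no permutation test of such a gap can pass a threshold of 0.05, and none was made.

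The deposited counts leave out reads that match several genomic places, which were 47.0% of the total in replicate 1 and 48.0% in replicate 2. Which of the 9 genes this touches was read from their sequences. Mir19b-1 and Mir92-1 each have a copy in the Mir106a-363 cluster on the X chromosome with an identical seed-bearing arm. Their hairpins are shown with the longest stretch shared by the copies in capitals, 25 bases for Mir19b and 22 bases for Mir92.
Mir19b-1: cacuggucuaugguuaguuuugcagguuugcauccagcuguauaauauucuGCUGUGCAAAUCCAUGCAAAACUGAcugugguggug
Mir19b-2: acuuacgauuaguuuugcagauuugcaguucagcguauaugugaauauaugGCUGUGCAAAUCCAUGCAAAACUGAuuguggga
Mir92-1: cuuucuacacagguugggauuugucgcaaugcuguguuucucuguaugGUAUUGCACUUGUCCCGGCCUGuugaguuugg
Mir92-2: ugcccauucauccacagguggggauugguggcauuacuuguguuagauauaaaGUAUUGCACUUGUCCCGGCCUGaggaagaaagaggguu
The shared stretch covers the whole miR-19b-3p arm with 2 more bases before it, and the whole miR-92a-3p arm with 1 more base before it. A read that lies inside these capitals matches both copies and is in neither count.

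For the other 7 genes no arm occurred whole in another annotated miRNA hairpin, on either strand. The longest stretch of the seed-bearing arm found in another hairpin was 10 bases for Mir93 and Mir106b, 12 for Mir25 and Mir19a, 13 for Mir17 and Mir20a and 17 for Mir18. Mir19a, with 2 and 5 counts, has no whole copy of its arm in another annotated miRNA gene, and Mir92-1, whose arm is shared whole, was counted at 411 ± 10 CPM. In annotated transcripts of other kinds, whole arms of the 9 genes occurred only in Mir17hg and Mcm7, the genes that hold their hairpins. Sequence outside annotated transcripts was not searched, and the part of read matching in the levels of the 9 genes was not tested.

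**Figure D2:**
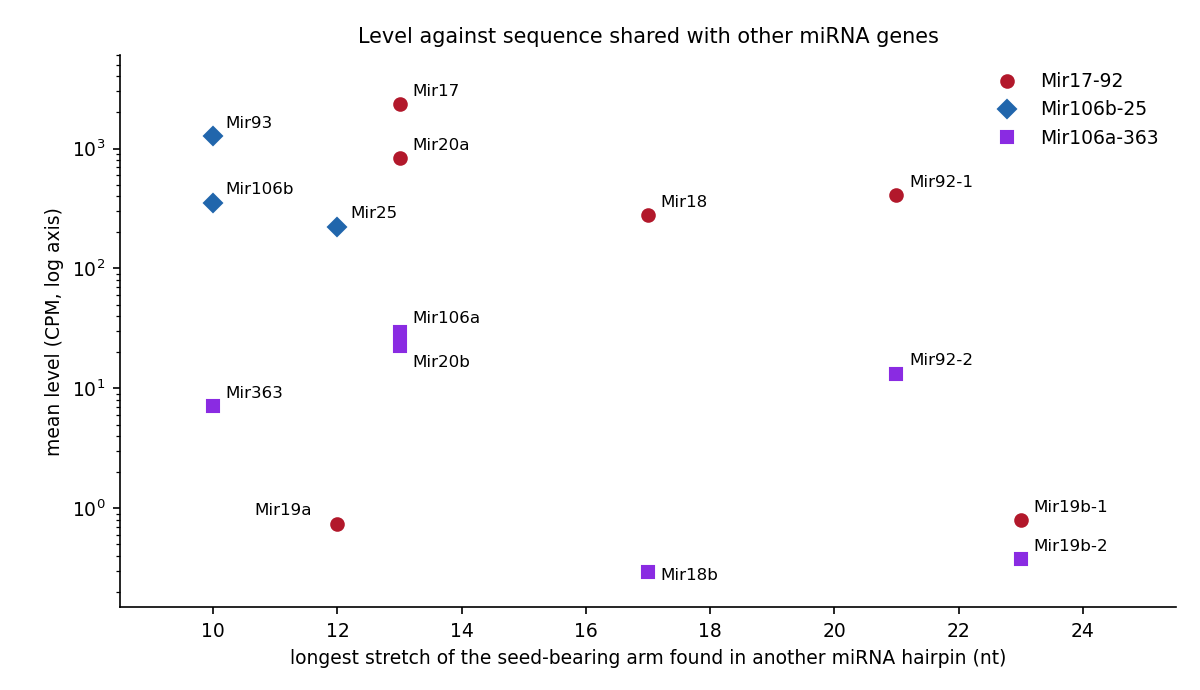
Mean level (CPM, log axis) against the longest stretch of the seed-bearing arm that also occurs in another annotated miRNA hairpin (bases), for the 9 genes and the 6 genes of the Mir106a-363 cluster. Mir19a sits low at 12 bases, while Mir92-1 is at 411 CPM with 21 bases.

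The third paralogous cluster, Mir106a-363 on the X chromosome (52741693 to 52742567, minus strand), was counted at far lower levels. Its 6 genes summed to 75.3 and 71.1 CPM, and Mir17-92 exceeded it 52.8 ± 1.6-fold. Mir106a had 29.7 ± 5.4 CPM and Mir20b had 22.4 ± 4.9 CPM, both with the miR-17 seed. Against miR-17-5p the miR-106a-5p arm carried U10A alone, and Mir17 exceeded it 71.4-fold in replicate 1 and 88.0-fold in replicate 2. Mir92-2 had 13.3 ± 0.33 CPM and Mir363 7.11 ± 1.96 CPM. The ratio of Mir92-1 to Mir92-2 was 30.9 in replicate 1 and 31.0 in replicate 2. Both counts lack any read inside the stretch these genes share, so the ratio covers only their other reads. Mir18b had 0 and 3 counts and Mir19b-2 had 3 and 0 counts, so both genes were near 0. The count of Mir19b-2 also lacks any read that fits Mir19b-1 as well.

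A further 4 annotated genes outside the 3 clusters share a seed with the 9 genes in the RefSeq table, which holds mature arms for 1018 of the 2202 genes. Mir32 and Mir92b carry the miR-92 seed and passed 10 counts in both libraries. Mir32 had 33.6 ± 2.2 CPM, and Mir92b had 23 counts in replicate 1 and 123 in replicate 2. Mir367, of the same seed, and Mir6383, of the miR-17 seed, had no count in either library.

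By seed family, then, the miR-17 seed reached 4857 and 4815 CPM in replicates 1 and 2 over its 7 genes. Mir17 gave 48.3% ± 1.4 of this, Mir93 26.1% ± 0.22, Mir20a 17.3% ± 0.96 and Mir106b 7.30% ± 0.64. Mir106a gave 0.614% ± 0.108 and Mir20b 0.464% ± 0.103. The miR-92 seed had 714 and 692 CPM, of which Mir92-1 gave 58.4% ± 0.12 and Mir25 31.7% ± 2.0. The miR-18 seed had 271 and 288 CPM, nearly all from Mir18. The miR-19 seed had 2.25 and 1.58 CPM over 3 genes, from 9 and 8 counts. Since copies of miR-92a and miR-19b lose reads that match both, the sums of the miR-92 and miR-19 seeds lack an unknown number of reads. Each sum counts whole hairpins, so reads of the arm without the seed may be in it too.

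**Figure D3:**
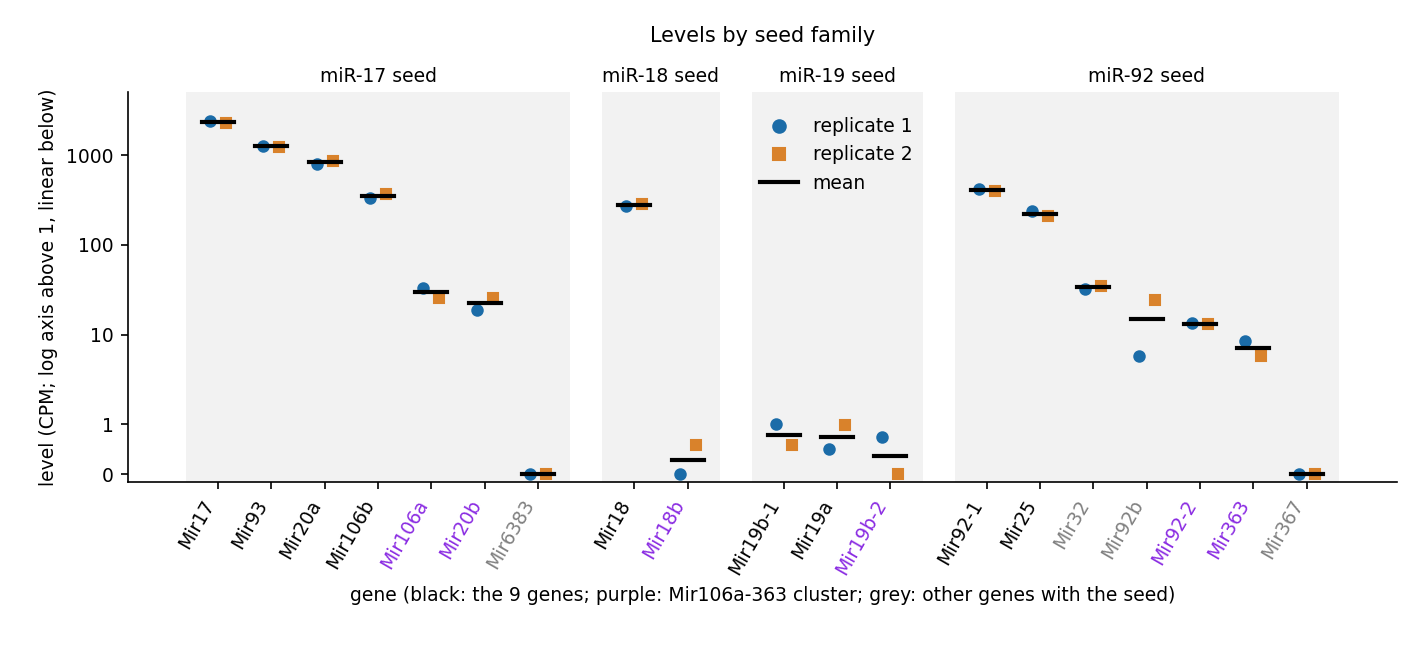
Level of each gene with 1 of the 4 seeds (CPM, log axis above 1 and linear below), grouped by seed and ordered by mean within it. Points are the 2 libraries and black lines their means. The miR-17 seed is carried mainly by Mir17, Mir93 and Mir20a, and all 3 miR-19 genes lie at or below 1.00 CPM.

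Between the 2 libraries the 7 counted genes differed little. Their log2 ratios of replicate 2 to replicate 1, with TMM scaling of the library totals, ran from -0.10 (Mir25) to 0.24 (Mir106b), and their median was 0.041 against 0.016 over all 332 genes tested. The two-sided exact binomial test covers counting error only and compares these 2 libraries. With Benjamini-Hochberg adjustment over the 332 genes, 3 of the 7 passed 0.05, all higher in replicate 2. Of all genes tested, 39.5% passed in either direction, 27.1% as higher and 12.3% as lower in replicate 2, so a share of 3 in 7 was near the background. Mir106b was higher by 1.18-fold (log2 0.24, interval 0.13 to 0.34, adjusted p = 2.23e-05, exact binomial test). Mir20a was higher by 1.13-fold (log2 0.17, interval 0.11 to 0.24, adjusted p = 1.71e-06, exact binomial test), and Mir18 by 1.11-fold (log2 0.15, interval 0.040 to 0.27, adjusted p = 0.0224, exact binomial test). Mir17 (log2 0.00078), Mir92-1 (0.023), Mir93 (0.041) and Mir25 (-0.10) did not pass. Of the 4 genes of the X-linked cluster that were tested, Mir20b passed, higher in replicate 2 by 1.43-fold (log2 0.52, interval 0.098 to 0.94, adjusted p = 0.0378, exact binomial test), and Mir106a, Mir92-2 and Mir363 did not.

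**Figure D4:**
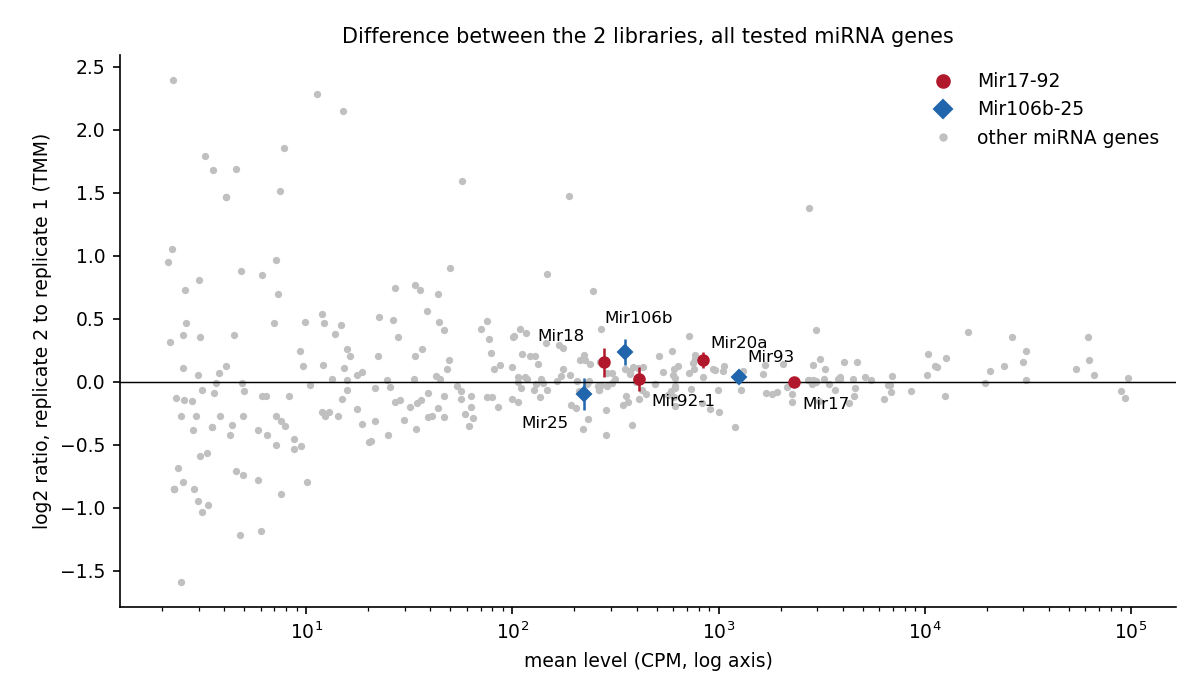
Log2 ratio of replicate 2 to replicate 1 (TMM scaling) against mean level (CPM, log axis) for the 332 genes tested. Bars on the 7 coloured genes are exact 95% intervals for counting error, and these genes lie between -0.10 and 0.24.

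These calls rest on counting error and on the scaling. With the edgeR exact test for negative binomial counts, 0 of the 7 passed (0 also at an unadjusted p under 0.05), against 1.81% of the genes tested. Its coefficient of variation, 0.14, was estimated from the same 2 libraries taken as replicates, so this count of 0 follows largely from that estimate and is no measure of how far the 7 genes differ. With plain library totals Mir18 no longer passed, while Mir17 (log2 -0.070) and Mir25 (log2 -0.17) passed as lower. Over all genes plain totals gave 42.5% past the test, 18.7% as higher and 23.8% as lower. The erythroid markers moved more than any of the 7 genes, with Mir451a at 1572 and 3901 CPM and Mir144 at 108 and 187 CPM in replicates 1 and 2. The hepatocyte marker Mir122 stood at 103 and 272 CPM, a 2.78-fold difference with TMM scaling. The slow muscle miRNAs Mir499 (1.65-fold) and Mir208b (1.62-fold), the endothelial Mir126a (1.28-fold) and the smooth muscle Mir143 (1.28-fold) were also further above replicate 1 than Mir106b was. Of the 23 listed markers, 21 had 10 counts or more on average. With TMM scaling 10 markers were higher and 3 lower in replicate 2 by more than Mir106b. Besides those named above, the higher ones were the muscle Mir1a-1 (1.38-fold) and Mir1a-2 (1.28-fold) and the leukocyte Mir142 (1.27-fold). The 3 lower ones were the muscle Mir133a-1 (0.77-fold) and Mir133b (0.83-fold) and the fibroblast Mir214 (0.78-fold). The abundant muscle marker Mir206 (0.91-fold) and the smooth muscle Mir145a (0.97-fold) were lower by less. The 4 leukocyte markers summed to 423 and 447 CPM, but they did not move together. With TMM scaling Mir142 and Mir155 (1.16-fold) were higher in replicate 2, while Mir223 (0.97-fold) and Mir150 (0.96-fold) were lower. The part of these markers in the differences of Mir106b, Mir20a and Mir18 was not tested.

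The genes nearest in level to the leading gene of each cluster were found by the Euclidean distance on log2(CPM + 1) over the 2 libraries. For Mir17 they were Mir409 on chromosome 12 (2268 ± 191 CPM, distance 0.095) and Mir149 on chromosome 1 (2274 ± 261 CPM, distance 0.13). For Mir93 they were Mir134 (1292 ± 85 CPM, distance 0.087) and Mir673 (1318 ± 11 CPM, distance 0.096), both on chromosome 12. With 2 libraries of 1 kind this measures closeness of level only.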

How the data were processed

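Small RNA reads of 2 gastrocnemius libraries were deposited by the authors as raw counts per miRNA gene, on mm10 with GENCODE M21 per the file headers of the metadata beside each table. Aligner and counter were not given in the sources used here. The sense-strand column was used, and the 9 genes had 0 reads on the opposite strand. Summary rows (58.7% and 60.7% of reads) were left out of the totals. Symbols came from M21 and sequences from RefSeq.

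The members, lists and tests were chosen with earlier results of these data known. The exact binomial test on TMM-scaled totals took every gene whose mean count was 10 or more. Named genes are the 9 members, the Mir106a-363 cluster, genes sharing a seed (with at least 10 counts in both libraries, except Mir367 and Mir6383, chosen once their values had been seen), the 2 genes nearest in level to Mir17 and to Mir93, and listed markers. On simulated Poisson counts of this comparison over 332 genes, the calls were right for 52 of 70 genes at 1.5-fold, for 60 of 66 at 2-fold and for 62 of 64 at 4-fold, while 2 of 132 unchanged genes were called. These counts held counting error alone, as the test assumes, so they check the code and not the fit of the test to these libraries. No change below 1.5-fold was simulated, so differences as small as those called among the members were not covered. Intervals and limits of detection (3 counts) cover counting error only, since the tables hold no molecular identifiers. Alternatives were the unstranded column, other denominators, scalings and count minimums, counts per base of hairpin, single libraries, and an edgeR negative binomial test. Software was Python 3.11.15, scipy 1.17.1, R 4.3.3, edgeR 4.0.16 and DESeq2 1.42.0.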

Additional observations from a re-analysis of the deposited data

Results flagged for a closer look

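Reads that match several genomic places are in no gene count and so in no comparison of the report. There were 4548703 such reads in replicate 1 (47.0% of the total) and 6186505 in replicate 2 (48.0% of the total). Of the 9 genes, Mir19b-1 and Mir92-1 have a seed-bearing arm that another miRNA gene holds whole, and their counts lack any read that fits both copies. How many of these reads belong to them was not tested.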

How the results depend on the processing

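The order of the genes and the ratio of the clusters (2.09 to 2.11 with either library left out) did not move with the settings tried, except that the miR-19 genes changed places without replicate 1 (35 of 36 pairs in order). Counting without regard to strand could not change the order or the ratio, since the 9 genes had 0 reads on the opposite strand. None of these settings restores the reads that match several genomic places. Shares depend on the denominator: with reads counted without regard to strand, Mir17-92 took 0.471% and Mir106b-25 0.224%, and over all reads 0.156% and 0.0740%. Without either library the shares ran from 0.383% to 0.389% and from 0.183% to 0.184%. TMM and DESeq2 factors nearly cancel over the 2 libraries, so that they leave the mean levels almost fixed by construction, while the log2 ratio of Mir17 between libraries was 0.00078 with TMM. Of the 7 genes tested, 3 differed between libraries (3 higher) under DESeq2 size factors, the unstranded column and both other count minimums (9 genes tested with no minimum beyond 1 count). The edgeR negative binomial exact test, whose dispersion came from the same 2 libraries, called 0, 0 of them higher. Plain totals called 2 as lower, with Mir17 at a log2 ratio of -0.070. The ratio of Mir17 was also negative, without passing the test, with DESeq2 size factors (-0.015) and with the unstranded column (-0.0066). No paired analysis was possible because there is 1 group, and the difference between libraries cannot be tested without either one. Mir19a, Mir19b-1, Mir18b and Mir19b-2 all had 5 counts or fewer, so their values are imprecise. The counts of Mir19b-1 and Mir19b-2 also lack any read that fits both copies, which more depth would not restore.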
